A study of Oryza sativa with 12 samples.

Results

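Leaves of 2 upland rice cultivars were compared after a field drought of 24 days, Bala against Azucena. The comparison rests on 6 of the 12 arrays of the series, the 3 arrays of droughted Bala leaf and the 3 of droughted Azucena leaf, and was chosen by cultivar and treatment labels alone. Bala is an indica and Azucena a tropical japonica cultivar, both of upland type. Both droughted groups grew in flooded field plots until day 59 after sowing, when water was withheld, and were sampled on day 83. The other 6 arrays, 3 of Bala and 3 of Azucena, come from plots that stayed flooded and were sampled on the same day, at the same age. In every group leaves of 3 plants per plot were taken, and the central part of the youngest but one fully expanded leaf was kept, after 4 cm had been cut from each end. Leaves were pooled into 1 bag for each of the field blocks, from 2 plots per block under drought and from 1 plot in the flooded controls. The labels call the 3 arrays of a group biological replicates, and the field block of each replicate is not named, so p-values measure the spread between these bags.

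Leaves that lose water accumulate the hormone abscisic acid (ABA), which acts through receptors, PP2C phosphatases and SnRK2 kinases on transcription factors that switch on protective genes. Among these are dehydrins and other late embryogenesis abundant proteins, while stressed leaves also make small heat shock proteins, which hold damaged proteins in solution, and compatible solutes. A longer drought also brings leaf rolling, slower growth and earlier senescence, in which chlorophyll is dismantled, lipids and proteins are broken down and nutrients leave the leaf. Jasmonate, a lipid-derived hormone made by lipoxygenase, allene oxide synthase, allene oxide cyclase and oxophytodienoate reductase, acts in wounding, defence and senescence. Its JAZ repressor genes are themselves switched on by jasmonate.

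The arrays gave 1 linear signal for each of 57258 probe sets that are not controls, and 33476 of them were bright enough to be tested. Signals of 3 arrays are given below in the order of their replicate numbers, first for Bala and then for Azucena. Differences are log2(signal + 16) of Bala minus Azucena, a scale that understates the change of dim genes. A gene is called where the adjusted p of the limma fit over all 33476 probe sets is under 0.05, and a group is at background where its mean does not exceed that of the brightest negative control probe set, so that single arrays of such a group can lie above it. That probe set read 18.9 to 24.2 on the Bala drought arrays and 21.5 to 21.7 on the Azucena drought arrays. With 3 arrays a group, the number of arrays limits the precision, and the median standard error of a difference was 0.195. The drought arrays had median signals of 11.2 to 11.8 in Bala and 11.5 to 12.2 in Azucena and actin 3′ to 5′ ratios of 6.15 to 6.93 in Bala and 6.56 to 6.74 in Azucena. The 3′ to 5′ ratios of GAPDH were less even, at 3.27 to 18.77 in Bala and 1.88 to 5 in Azucena. Spearman correlations were 0.905 to 0.908 among the Bala drought arrays, 0.907 to 0.91 among the Azucena drought arrays and 0.86 to 0.864 between cultivars.

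One array outside the drought comparison stood apart. Of 56 probe sets with a signal of at least 200 in all 3 Bala drought arrays and at background in all 3 Azucena drought arrays, 31 were above background on flooded Azucena array 1, against 1 on array 2 and 0 on array 3. Their median signal was 49.8 on flooded Azucena array 1, which is 15% of the flooded Bala level, and 3.6 and 4.4 on the other flooded Azucena arrays. In the drought groups no array behaved so: of 25 probe sets that were bright in flooded Bala and at background in flooded Azucena, 3, 5 and 3 were above background on the Azucena drought arrays, and of 114 with the opposite pattern 4, 5 and 4 were above background on the Bala drought arrays. The drought difference itself does not use flooded Azucena array 1. Like every array, it enters the shared estimate of the spread, the choice of probe sets tested and the choice of each gene's probe set. Values in flooded plots are therefore given with and without it, and the cause of its readings was not tested.

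Under drought the cultivars differed at 7684 of 33476 probe sets (23.0%), 3623 higher in Bala (10.8%) and 4061 lower (12.1%). In genes, each represented by its brightest probe set, 4017 of 15608 were called (25.7%), 1872 of them higher in Bala (12%) and 2145 lower (13.7%). Of these, 1490 differed by at least 1 on the log2 scale and 173 by at least 3. In 6856 genes (43.9%) the arrays of the cultivars did not overlap, and 1835 of these were called higher (11.8%) and 2088 lower (13.4%). The largest differences were mostly in one direction, with 35 genes higher and 138 lower in Bala by at least 3. In Azucena 338 of the genes called higher in Bala were at background, and in Bala 588 of the genes called lower were. A probe set also reads low where a cultivar's sequence differs from its probes, and this cannot be told apart from a lower transcript level. The split between higher and lower depends on the scaling of the arrays: 47.1% of called probe sets were higher in Bala with the signals as deposited and 58.6% when each array was centred on its median. The median gene differed by 0.03.

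Most genes have 1 probe set, but 2556 genes had several. Of 395 such genes with at least 2 probe sets called, 336 had calls of 1 sign and 59 had calls of both signs. Some genes named below were called under drought at 1 of their tested probe sets only. They include HSP21.9, DI19, MYB4, GLO1, CIPK2, TUB4, WNK8, BBD2, SHAT1 and NAC6. Only 2160 of the genes tested carry a name in the tables used here, and 539 of these were called (25.0%), 250 higher in Bala (11.6%) and 289 lower (13.4%). The groups of genes below are described by their counts, beside those shares and beside the median difference of 0.03 over all genes.

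**Figure D1:**
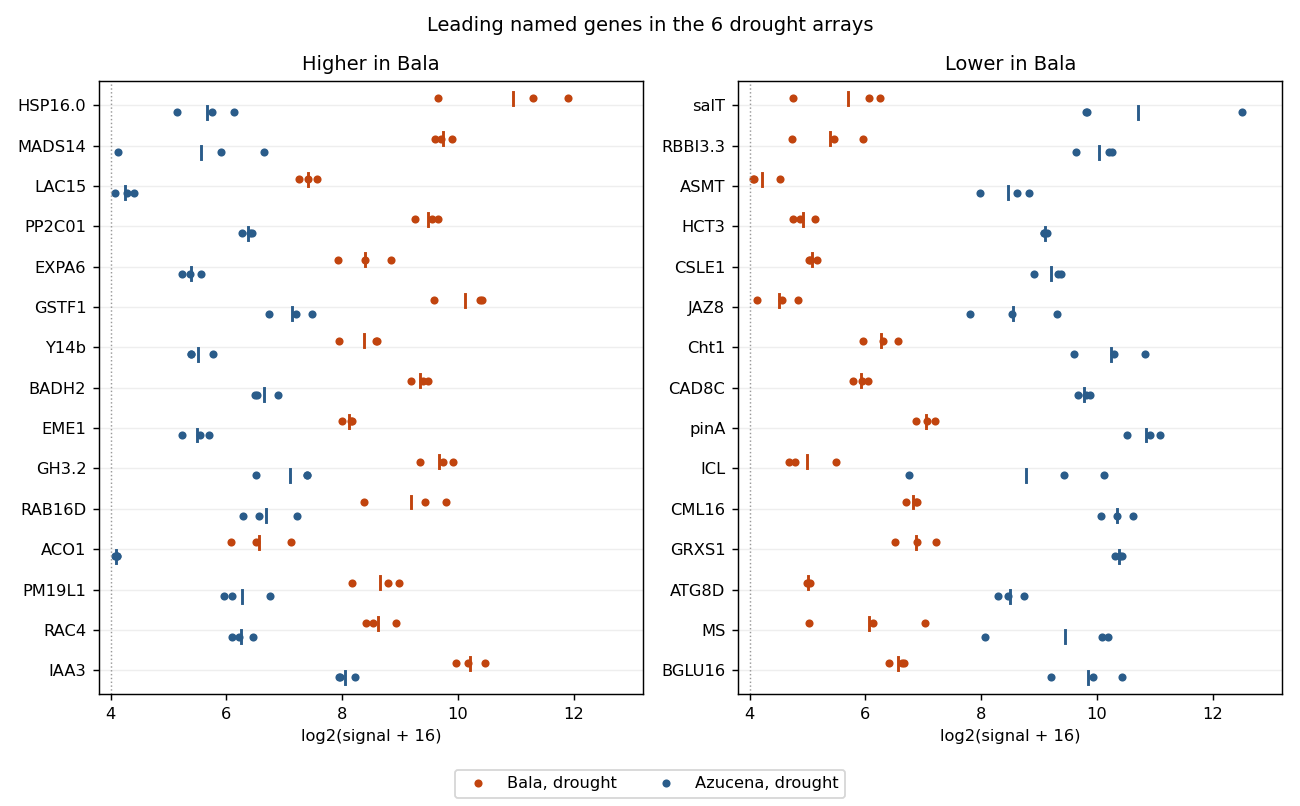
Levels of the 15 named genes with the highest and the 15 with the lowest Bala minus Azucena difference on the 6 drought arrays, as log2(signal + 16) on the horizontal axis. Points are arrays, vertical ticks are group means, and the dotted line marks a signal of 0. Only called genes whose arrays do not overlap between the cultivars could be chosen, so the lack of overlap follows from the choice. In MADS14, salT, ICL and MS 1 Azucena array lies far from the other two.

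Genes of dehydration protection did not differ in one direction. HSP16.0 (LOC4340661), a small heat shock protein, was the named gene with the largest excess in Bala. Its signals were 3782, 2486 and 794 in the Bala arrays, against 53.8, 37.7 and 19.3 in the Azucena arrays. All Bala arrays were far above the Azucena arrays, though Bala array 3 was the dimmest of its group. The difference was 5.28 ± 0.71 (SE, adjusted p = 2.5e-05), or 38.8-fold on the log2(signal + 16) scale, and 5.92 without Bala array 3. Among 19 small heat shock protein genes tested, 1 was called higher and 4 lower in Bala, with a median of -0.51. The share called, 26.3%, was near the 25.7% of all genes. HSP16.6 read 18, 9.4 and 9.7 in the Bala arrays, against 252, 53.9 and 35.9 in the Azucena arrays. The Bala arrays were all at background and the Azucena arrays above it, at least 3.62-fold lower in Bala with a difference of -1.82 ± 0.40 (SE, adjusted p = 0.0027), and -1.10 without Azucena array 1. HSP18.8 was lower in Bala in every array, with 165, 258 and 283 in the Bala arrays, against 440.1, 444 and 591 in the Azucena arrays and a difference of -1.03 ± 0.20 (SE, adjusted p = 0.00088). HSP21.9 was by far brightest on Azucena array 1, with signals of 135, 93.5 and 19.7 in the Bala arrays, against 2275, 173 and 110.3 in the Azucena arrays. These groups overlap, and the difference of -2.18 ± 0.73 (SE, adjusted p = 0.041) was lost without any 1 of drought Bala arrays 2 and 3, drought Azucena array 1, flooded Bala arrays 1 and 3 or flooded Azucena array 3 (adjusted p = 0.05 to 0.18). It was -0.88 without Azucena array 1, -1.56 without Bala array 3 and -2.97 without Azucena array 3. Settings that ended the call of HSP21.9 included median centring, quantile normalization, pseudocounts of 1 and 64 and the 6 drought arrays alone.

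The dehydrins differed among themselves. RAB16D (LOC4350451), a dehydrin gene induced by ABA, gave 868, 671 and 315 in the Bala arrays, against 133, 79 and 61.8 in the Azucena arrays. The lowest Bala array was above the highest Azucena array, and the difference was 2.50 ± 0.33 (SE, adjusted p = 2e-05). RAB16C, a close relative, gave 1897, 1147 and 944 in the Bala arrays, against 1496, 2558 and 2282 in the Azucena arrays. Here the groups overlap and the small difference was -0.69 ± 0.24 (SE, adjusted p = 0.047). Settings that ended its call included median centring, a pseudocount of 1 and the 6 drought arrays alone. RAB25, another dehydrin, was dim in both cultivars, with levels that touch, at background in Azucena on the mean and at least 1.91-fold higher in Bala (0.84, adjusted p = 0.014). The calls of both genes were lost on leaving out single arrays, that of RAB16C without any 1 of drought Bala arrays 2 and 3, drought Azucena arrays 2 and 3, flooded Bala arrays 1 and 2 or flooded Azucena arrays 2 and 3 (adjusted p = 0.052 to 0.21) and that of RAB25 without any 1 of drought Bala arrays 1 and 2 or drought Azucena array 2 (adjusted p = 0.064 to 0.087). Of the 8 late embryogenesis abundant and dehydrin genes tested, 2 were called higher and 1 lower in Bala (37.5%, against 25.7% of all genes). Their median was 0.26. PM19L1, a membrane protein of the AWPM-19 family that responds to dehydration, gave 491, 429 and 273 in the Bala arrays, against 91.3, 52.5 and 46.3 in the Azucena arrays, groups that do not overlap, with a difference of 2.38 ± 0.23 (SE, adjusted p = 5e-07).

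Heat stress transcription factors were called in 6 of 20 cases (30.0%, against 25.7% of all genes), 5 higher and 1 lower in Bala, with a median of 0.19. Spike-in centring gave 4 higher and 3 lower. HSFC1B, of class C, read 1599.7, 2626 and 1855 in the Bala arrays, against 714, 866 and 1029.9 in the Azucena arrays, higher in every Bala array (1.19 ± 0.22 SE, adjusted p = 0.00071). HSFC2A differed by 0.98 (adjusted p = 0.012) and HSFA4B by 0.76 (adjusted p = 0.01), calls that were lost for HSFC2A without drought Bala array 3 (adjusted p = 0.059) and for HSFA4B without any 1 of drought Bala array 1 or drought Azucena array 3 (adjusted p = 0.051 to 0.062). HSFB1, of class B, was the member that was lower in Bala, with 141, 79.3 and 71.7 in the Bala arrays, against 264, 284 and 234 in the Azucena arrays and a difference of -1.33 ± 0.24 (SE, adjusted p = 0.0004). None of 7 genes for HSP70, HSP90 and HSP100 chaperones was called by limma, and 0 of the 7 had an unadjusted p under 0.05.

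Of 68 genes in the ABA list, which is made up mostly of the PP2C phosphatase family, 12 were called higher and 8 lower in Bala, and 16 and 8 under median centring or 11 and 11 under spike-in centring. PP2C01 (LOC4324414) stood out with 593, 729.9 and 794 in the Bala arrays, against 69.4, 71.4 and 61 in the Azucena arrays. Its groups lie far apart, and the difference was 3.11 ± 0.18 (SE, adjusted p = 4.7e-10). In flooded plots it was 2.76, and 2.9 without flooded Azucena array 1. The test of the drought difference against the flooded one did not call PP2C01 (0.35, adjusted p = 0.42). PP2C08, a phosphatase of the group that inhibits ABA signalling, gave 554, 806 and 820.0 in the Bala arrays, against 212, 262 and 319 in the Azucena arrays with a difference of 1.40 ± 0.20 (SE, adjusted p = 4.1e-05). Others were lower in Bala, among them PP2C16 (-1.67, adjusted p = 3.2e-06) and PP2C48 (-1.10, adjusted p = 0.0004), both with groups that do not overlap. The remaining called members of the list that were higher in Bala were the SnRK2 kinases SAPK3, SAPK4, SAPK5, SAPK9 and SAPK10, the ABA hydroxylases ABA8OX1 and ABA8OX2, the zeaxanthin epoxidase ZEP1, PP2C07 and PP2C73, with differences of 0.47 to 1.06. The median of the list was 0.08 and changed sign under spike-in centring, where it was -0.01. The share called, 29.4%, was near the 25.7% of all genes. DI19, a zinc finger protein named for its induction by drought, was bright in both cultivars, with 5886, 5489 and 4422 in the Bala arrays, against 3658, 3462 and 3630.0 in the Azucena arrays and a difference of 0.54 ± 0.15 (SE, adjusted p = 0.016) that was lost without any 1 of drought Bala arrays 1 and 2 or drought Azucena array 2 (adjusted p = 0.057 to 0.077).

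Enzymes that make compatible solutes were higher in Bala where they were called, 5 of 11 genes with none lower, and the median was 0.54. The share called was 45.5%, against 25.7% of all genes. BADH2 (LOC4345606), a betaine aldehyde dehydrogenase whose loss gives rice its fragrance, read 657, 699 and 564 in the Bala arrays, against 76.9, 74.7 and 103 in the Azucena arrays. Every Bala array was several times brighter, and the difference was 2.71 ± 0.38 (SE, adjusted p = 4.1e-05). In flooded plots it was 2.68, and 3.39 without flooded Azucena array 1. The test of the drought difference against the flooded one did not call BADH2 (0.02, adjusted p = 0.99). RINO1, the myo-inositol 1-phosphate synthase that starts inositol and raffinose synthesis, gave 1205, 995 and 685 in the Bala arrays, against 343, 321 and 323 in the Azucena arrays, again without overlap (1.47 ± 0.19 SE, adjusted p = 1.3e-05). The trehalose 6-phosphate phosphatase gene TPP7 gave 226, 237 and 256 in the Bala arrays, against 125, 127 and 102 in the Azucena arrays and a difference of 0.93 ± 0.17 (SE, adjusted p = 0.00066). TPP2, a second gene of this kind, differed by 0.68 (adjusted p = 0.023), lost without any 1 of drought Bala arrays 1 and 2 or drought Azucena array 3 (adjusted p = 0.06 to 0.13). With single arrays left out or other settings, 3 to 6 of the 11 genes were called.

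Among 19 antioxidant genes, 2 were called higher and 1 lower in Bala (15.8%, against 25.7% of all genes). The median of -0.04 changed sign with the scaling, at 0.03 under median centring. GSTF1 (LOC4325710), a glutathione S-transferase of the phi class, gave 1346, 1317 and 749.9 in the Bala arrays, against 163, 131 and 90.8 in the Azucena arrays. The groups do not overlap, and the difference was 2.98 ± 0.25 (SE, adjusted p = 9.2e-08). APX8, an ascorbate peroxidase of the thylakoid membrane, was bright in both cultivars and higher in Bala, with 2757, 3026 and 2647 in the Bala arrays, against 1801, 1867 and 1695 in the Azucena arrays (0.65 ± 0.13 SE, adjusted p = 0.0012). The catalase CAT-A was lower in Bala, with 3657, 3229 and 4387 in the Bala arrays, against 4863, 6097 and 6300.0 in the Azucena arrays (-0.61 ± 0.13 SE, adjusted p = 0.0025).

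Of 12 genes of chlorophyll synthesis, 4 were called higher in Bala and none lower (33.3%, against 25.7% of all genes), with a median of 0.23. Quantile normalization gave 4 higher and 1 lower, and spike-in centring 2 higher and 1 lower. CHLG, the chlorophyll synthase of the last step, read 831, 1053 and 1077 in the Bala arrays, against 579, 596 and 570.4 in the Azucena arrays, groups that do not overlap, with a difference of 0.74 ± 0.14 (SE, adjusted p = 0.00084). HEMD (0.72, adjusted p = 0.028), PORA (0.70, adjusted p = 0.025) and URO-D2 (0.35, adjusted p = 0.042) had small differences, and each lost its call without single arrays. The call was lost for HEMD without any 1 of drought Bala arrays 1 and 2 or drought Azucena arrays 2 and 3 (adjusted p = 0.053 to 0.16), for PORA without any 1 of drought Bala arrays 2 and 3 or drought Azucena arrays 1 and 2 (adjusted p = 0.076 to 0.092) and for URO-D2 without any 1 of drought Bala arrays 2 and 3, drought Azucena arrays 1, 2 and 3 or flooded Azucena array 1 (adjusted p = 0.051 to 0.17). Over all settings 1 to 5 of the 12 genes were called. In the 4 tested genes of chlorophyll breakdown and senescence, 2 were lower in Bala and none higher. RCCR1, the red chlorophyll catabolite reductase, gave 569, 459 and 344 in the Bala arrays, against 692, 1082 and 1148 in the Azucena arrays, with every Azucena array above every Bala array (-1.06 ± 0.23 SE, adjusted p = 0.0028). SGR, the STAY-GREEN protein that starts the breakdown of chlorophyll, gave 1169, 727 and 493 in the Bala arrays, against 900.4, 2799.5 and 2271 in the Azucena arrays. Azucena array 1 lay within the Bala range, and the difference of -1.24 ± 0.39 (SE, adjusted p = 0.03) was lost without any 1 of drought Bala arrays 2 and 3 or drought Azucena arrays 2 and 3 (adjusted p = 0.081 to 0.15).

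Of 9 genes for the Calvin cycle and photorespiration 2 were called (22.2%), both higher in Bala, a share near that of all genes. Quantile normalization and spike-in centring each gave 2 higher and 1 lower. FBP1, which its synonyms give as the cytosolic fructose-1,6-bisphosphatase of sucrose synthesis, read 418, 555 and 788 in the Bala arrays, against 185, 254 and 202 in the Azucena arrays and differed by 1.36 ± 0.26 (SE, adjusted p = 0.00076). GLO1, the glycolate oxidase of photorespiration, was among the brightest genes, with 6223, 6625 and 6913 in the Bala arrays, against 4280.1, 5275 and 5066 in the Azucena arrays (0.44 ± 0.11 SE, adjusted p = 0.0074), a call lost without drought Azucena array 1 (adjusted p = 0.053) and with the mean of its probe sets (adjusted p = 0.31). OEE3, a subunit of the oxygen-evolving complex of photosystem II, was lower in Bala in every array, with 2971, 3826 and 5068 in the Bala arrays, against 6995, 7070.3 and 6289 in the Azucena arrays and a difference of -0.81 ± 0.15 (SE, adjusted p = 0.0006).

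Starch genes were called in 3 of 8 cases (37.5%, against 25.7% of all genes). SS1, a soluble starch synthase, gave 1785, 1708 and 1236 in the Bala arrays, against 613, 615 and 586 in the Azucena arrays. The Azucena arrays were nearly equal and all below the Bala arrays, and the difference was 1.34 ± 0.18 (SE, adjusted p = 2.2e-05). GBSS1, the granule-bound starch synthase, was at background in Azucena and at least 1.47-fold higher in Bala, with a difference of 0.85 (adjusted p = 0.0041). SBE1, a starch branching enzyme, was lower in Bala by a small amount (-0.48, adjusted p = 0.0093), and the call was lost without drought Azucena array 2 (adjusted p = 0.05) and with the mean of its probe sets (adjusted p = 0.08). Of 27 genes for sugar metabolism and transport, 1 was higher and 8 were lower in Bala, and 5 and 7 under median centring. The share called as deposited was 33.3%, against 25.7% of all genes. The median was -0.03 and 0.04 under median centring. MST3, a monosaccharide transporter, gave 141, 187 and 331 in the Bala arrays, against 328, 1565 and 919.8 in the Azucena arrays. Azucena array 1 lay just below the brightest Bala array, and the difference was -1.84 ± 0.38 (SE, adjusted p = 0.0017), and -2.45 without Azucena array 1. The sugar transporter SWEET4 gave 918, 798 and 663 in the Bala arrays, against 1372, 2561 and 2923 in the Azucena arrays (-1.45 ± 0.26 SE, adjusted p = 0.0004), and SWEET16, a transporter of the same family, differed by -1.26 with groups apart. The sucrose synthase SUS1 was lower in Bala as well, with 63.1, 62.4 and 105 in the Bala arrays, against 153, 270.4 and 223 in the Azucena arrays (-1.31 ± 0.28 SE, adjusted p = 0.0021).

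The 2 enzymes particular to the glyoxylate cycle, which turns the carbon of fatty acids into sugar, were both among the lowest genes in Bala. ICL (LOC4343441), isocitrate lyase, read 29.1, 9.7 and 11.5 in the Bala arrays, against 92.2, 1098 and 674 in the Azucena arrays. The Bala mean was at background, with array 1 above it, and ICL was at least 16.3-fold lower there, with a difference of -3.78 ± 0.55 (SE, adjusted p = 5.3e-05). MS (LOC9268154), malate synthase, gave 114, 54 and 16.6 in the Bala arrays, against 253, 1146 and 1071 in the Azucena arrays and a difference of -3.39 ± 0.49 (SE, adjusted p = 4.8e-05). In both genes Azucena array 1 was far dimmer than arrays 2 and 3 but brighter than every Bala array. Without it the differences were -4.79 for ICL and -4.08 for MS, and without Azucena array 2 that of ICL was -3.11.

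Cell wall genes were called both ways. Of 22 cellulose synthases and related enzymes 7 were higher and 3 lower in Bala (45.5%, against 25.7% of all genes), with a median of 0.21. Spike-in centring gave 3 higher and 3 lower and median centring 9 and 3, and 5 to 12 were called over the settings tried. CESA4 and CESA7, which make cellulose of secondary walls, were dim but higher in every Bala array. CESA4 gave 92.2, 83.2 and 144 in the Bala arrays, against 34.9, 25.2 and 21.3 in the Azucena arrays (1.49 ± 0.32 SE, adjusted p = 0.0025) and CESA7 gave 89, 49.9 and 169.6 in the Bala arrays, against 40.4, 23.6 and 15.6 in the Azucena arrays (1.40 ± 0.34 SE, adjusted p = 0.0059). CSLA1 differed by 0.86 (adjusted p = 0.035), lost without any 1 of drought Bala arrays 2 and 3, drought Azucena arrays 1 and 2 or flooded Bala array 1 (adjusted p = 0.052 to 0.18). CSLE1 (LOC4347370), a cellulose synthase-like gene, was the opposite, with 16.8, 19.9 and 16.6 in the Bala arrays, against 465, 651 and 626 in the Azucena arrays. It stayed at background in all Bala arrays, at least 26.4-fold lower than in Azucena (-4.13 ± 0.19 SE, adjusted p = 2.3e-11).

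EXPA6 (LOC4332763), an expansin, a protein that loosens walls, gave 441, 319 and 229 in the Bala arrays, against 25.3, 21.6 and 31.3 in the Azucena arrays and differed by 3.00 ± 0.24 (SE, adjusted p = 3.5e-08). EXPA16, another expansin, was at background in Azucena and at least 3.17-fold higher in Bala (1.34 ± 0.22 SE, adjusted p = 0.00017). The third called member of 17 expansin and xyloglucan genes (17.6% called, against 25.7% of all genes) was EXPA5. It was at background in both cultivars on the mean and lower in Bala (adjusted p = 0.037). Its call was lost without any 1 of drought Bala arrays 1 and 3 or drought Azucena arrays 1 and 3 (adjusted p = 0.086 to 0.16) and under median centring and quantile normalization. LAC15 (LOC4348374), a laccase, a copper oxidase of the kind that polymerises lignin, read 173, 137 and 154 in the Bala arrays, against 0.8, 5.1 and 3.6 in the Azucena arrays. Azucena was at background, and the gene was at least 7.12-fold higher in Bala, with a difference of 3.16 ± 0.22 (SE, adjusted p = 5.4e-09). CAD8C (LOC9269515), a cinnamyl alcohol dehydrogenase, was the reverse, with 38.9, 45.6 and 50.2 in the Bala arrays, against 795, 877 and 919 in the Azucena arrays and a difference of -3.85 ± 0.18 (SE, adjusted p = 3.7e-11). In the lignin and phenylpropanoid list of 12 genes (25.0% called, against 25.7% of all genes), 4CL4 was also lower in Bala (-0.74, adjusted p = 0.0062) and 4CL2 higher (0.83, adjusted p = 0.018). Both are 4-coumarate CoA ligases. The call of 4CL2 was lost without any 1 of drought Bala arrays 2 and 3 or drought Azucena array 1 (adjusted p = 0.071 to 0.1). The test of its drought difference against the flooded one gave 3.72 (adjusted p = 3.7e-06), so the flooded difference of 4CL2 was below 0. HCT3 (LOC4340333), a hydroxycinnamoyl transferase, gave 10.8, 19.1 and 13.4 in the Bala arrays, against 528, 544 and 526 in the Azucena arrays. The Azucena arrays were nearly equal and the Bala arrays at background, at least 24.5-fold lower (-4.18 ± 0.17 SE, adjusted p = 7.6e-12).

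Motor proteins of the cytoskeleton were dim in both cultivars. Of 28 kinesin genes 5 were higher and 1 lower in Bala (21.4% called, against 25.7% of all genes), with a median of -0.01. KIN14F gave 53.7, 36 and 57.8 in the Bala arrays, against 14.9, 3.3 and 1.7 in the Azucena arrays, at background in Azucena and at least 2.23-fold higher in Bala (1.55 ± 0.22 SE, adjusted p = 3.9e-05). KIN14C was at least 2.26-fold higher in Bala (1.00, adjusted p = 0.0024), also with Azucena at background. With a pseudocount of 1 its call was lost (adjusted p = 0.05). KIN5C was at least 1.38-fold higher (0.83, adjusted p = 0.0093), again with Azucena at background. The call of KIN5C was lost without drought Azucena array 2 (adjusted p = 0.051). KIN14A was at background in Bala and at least 2.49-fold lower there (-1.03, adjusted p = 0.0011). The medians of the kinesin, expansin and lignin lists lay within 0.06 of 0 and changed sign with the scaling of the arrays.

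Of 10 chitinases, protease inhibitors and pathogenesis-related genes 7 were called lower and none higher, with a median of -1.22, whereas of 8 disease resistance genes 1 was higher and none lower, or 1 lower under each other scaling. RBBI3.3 (LOC9271230), a Bowman-Birk trypsin inhibitor, gave 45.9, 28.1 and 10.5 in the Bala arrays, against 1214, 1159 and 782 in the Azucena arrays. The dimmest Azucena array was far above the brightest Bala array, and the difference was -4.65 ± 0.26 (SE, adjusted p = 4.6e-10), or 25.2-fold on the log2(signal + 16) scale. Cht1 (LOC4342115), a chitinase, gave 78, 62.6 and 45.8 in the Bala arrays, against 763, 1793 and 1241 in the Azucena arrays (-3.97 ± 0.25 SE, adjusted p = 2.2e-09). Cht5 read 25.2, 17.8 and 12.7 in the Bala arrays, against 127, 665 and 215 in the Azucena arrays, at background in Bala on the mean and at least 11-fold lower there (-3.04 ± 0.46 SE, adjusted p = 8.9e-05, and -2.41 without Azucena array 2). Cht2 was bright in both and lower in every Bala array, with 758, 641 and 937 in the Bala arrays, against 1567, 1833 and 2140.0 in the Azucena arrays (-1.23 ± 0.18 SE, adjusted p = 7.6e-05). With the mean of its probe sets this call was lost (adjusted p = 0.16). The other called members were Cht10, Cht3 and Cht6, with differences of -1.20, -0.89 and -0.68.

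The jasmonate list lay in the same direction. Of 26 genes tested 16 were lower in Bala and none higher, 61.5% against 13.7% of all genes, with a median of -0.80. Over the settings tried 13 to 18 of the 26 were called, and 1 was called higher under median centring and under quantile normalization. JAZ8 (LOC4347164), a JAZ repressor, read 1.4, 7.7 and 12.7 in the Bala arrays, against 207, 615 and 352 in the Azucena arrays. Bala stayed at background, at least 16.3-fold lower than Azucena, with a difference of -4.03 ± 0.29 (SE, adjusted p = 9.9e-09). JAZ11 gave 104, 79.5 and 42 in the Bala arrays, against 212, 867 and 497 in the Azucena arrays and JAZ10 118, 107 and 29.6 in the Bala arrays, against 374, 485 and 327 in the Azucena arrays. Neither overlaps between cultivars, and the differences were -2.42 ± 0.36 (SE, adjusted p = 6.4e-05) and -2.16 ± 0.31 (SE, adjusted p = 5.3e-05). JAZ9 was at background in Bala and at least 3.56-fold lower (-1.78, adjusted p = 0.00038). The other called members were the repressors JAZ1, JAZ3, JAZ5, JAZ6, JAZ7, JAZ12 and JAZ13, the lipoxygenases LOX5 and LOX9, the reductases OPR10 and OPR13 and the cyclase aoc. Their differences ran from -1.67 to -0.44. The hormone was not measured, and the allene oxide synthases AOS1 and AOS2 and the conjugating enzyme JAR1 were not called. Flooded leaves also differed this way, with 13 of the 26 genes lower and none higher in Bala and a median of -0.68. In the test of the drought difference against the flooded one 3 were called lower, JAZ10, JAZ11 and JAZ12, and 1 higher, OPR10. Without flooded Azucena array 1 the adjusted p of this test was 0.053 for JAZ11, 0.058 for JAZ12, 0.029 for JAZ10 and 0.03 for OPR10. Over all arrays left out in turn, the call of JAZ11 in this test was lost without any 1 of drought Bala array 3, drought Azucena arrays 2 and 3, flooded Bala arrays 1 and 3 or flooded Azucena array 1 (adjusted p = 0.053 to 0.07).

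JAMYB, a MYB factor induced by jasmonate, gave 61.5, 49.3 and 17.2 in the Bala arrays, against 291, 479 and 382 in the Azucena arrays and differed by -2.83 ± 0.26 (SE, adjusted p = 2.8e-07). In the MYB list 3 of 11 genes were called, all lower in Bala, with a median of -0.48. The share called, 27.3%, was near the 25.7% of all genes. MYB4 read 120.1, 62 and 44.2 in the Bala arrays, against 237, 283 and 194 in the Azucena arrays (-1.54 ± 0.25 SE, adjusted p = 0.00014). MYBS1, a regulator of sugar-repressed amylase genes, differed by -0.92 (adjusted p = 0.0015), and MYBAS2 by -0.77 (adjusted p = 0.04), a call lost without any 1 of drought Bala arrays 1, 2 and 3 or drought Azucena arrays 1, 2 and 3 (adjusted p = 0.062 to 0.12).

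salT (LOC4326471), a mannose-binding lectin first described as a salt-induced protein, had the largest deficit in Bala of any named gene. Its signals were 60.6, 51.1 and 11 in the Bala arrays, against 881, 5761 and 888 in the Azucena arrays. Azucena array 2 was several times brighter than the other two, which were still far above Bala. The difference was -5.01 ± 0.52 (SE, adjusted p = 1.1e-06), and -4.12 without Azucena array 2. ASMT (LOC4346795), the O-methyltransferase that completes melatonin synthesis, gave 0.8, 0.7 and 6.9 in the Bala arrays, against 236, 435 and 375 in the Azucena arrays. Bala was at background, at least 15.5-fold lower than Azucena (-4.25 ± 0.26 SE, adjusted p = 1.4e-09). pinA (LOC9268662) gave 132, 102 and 118 in the Bala arrays, against 1914, 2145 and 1457 in the Azucena arrays, with no overlap (-3.79 ± 0.19 SE, adjusted p = 1.2e-10).

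Beta-glucosidases, which release hormones and defence compounds from their glucosides, were called in 9 of 23 cases (39.1%, against 25.7% of all genes). Of them 1 was higher and 8 were lower in Bala, and the median of the list was -0.40. BGLU16 (LOC4336389) gave 68.6, 85.1 and 83.3 in the Bala arrays, against 573, 953 and 1363 in the Azucena arrays (-3.29 ± 0.22 SE, adjusted p = 5.4e-09). BGLU25 gave 21.5, 18.2 and 12.3 in the Bala arrays, against 158, 160.2 and 221 in the Azucena arrays, at background in Bala on the mean and at least 7.82-fold lower there (-2.55 ± 0.20 SE, adjusted p = 2.7e-08). BGLU19 (at least 4.2-fold lower, adjusted p = 5e-06) and BGLU27 (at least 1.45-fold lower, adjusted p = 0.00016) were likewise at background in Bala. Germin-like genes were dim in both cultivars. Of 6 tested, 3 were called lower in Bala, among them GER4 (at least 1.26-fold lower, adjusted p = 2.8e-05) and GER7 (at least 1.36-fold lower, adjusted p = 0.046), both with Bala at background. GER3 was at background in both cultivars. The call of GER7 was lost without any 1 of drought Bala arrays 1, 2 and 3, drought Azucena arrays 1, 2 and 3 or flooded Azucena arrays 2 and 3 (adjusted p = 0.052 to 0.14) and that of GER3 without any 1 of drought Bala arrays 1 and 3 or drought Azucena arrays 2 and 3 (adjusted p = 0.066 to 0.14). Median centring, quantile normalization and a pseudocount of 64 also ended the call of GER7.

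**Figure D2:**
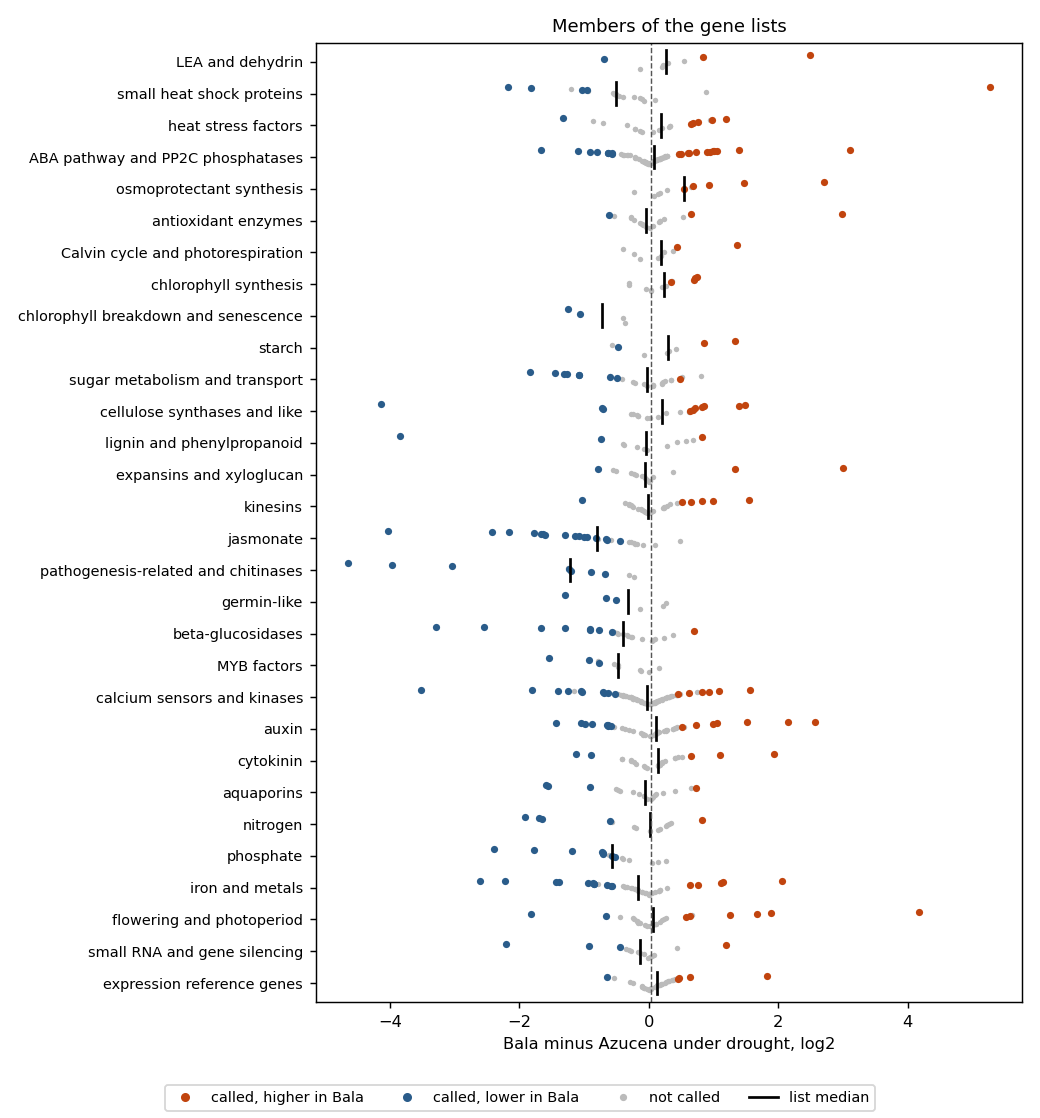
Bala minus Azucena difference under drought, on the log2(signal + 16) scale, of each tested member of 30 gene lists. Coloured points were called at an adjusted p under 0.05, grey points were not, black ticks are list medians and the dashed line is the median of all genes (0.03). The jasmonate, chitinase, phosphate, MYB, germin-like and chlorophyll breakdown lists have no called member on the right. The compatible solute, chlorophyll synthesis and Calvin cycle lists have none on the left.

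Calcium sensors and the kinases they control were called at about the rate of all genes, 6 higher and 10 lower in Bala of 73, and 11 and 10 under median centring or 6 and 14 under spike-in centring. CML16 (LOC4325693), a calmodulin-like protein, gave 103, 101 and 88.3 in the Bala arrays, against 1552, 1280.4 and 1059.9 in the Azucena arrays. The groups lie far apart (-3.52 ± 0.18 SE, adjusted p = 1.1e-10). CML1 varied little within either cultivar, with 711, 723 and 601 in the Bala arrays, against 2394, 2489 and 2317 in the Azucena arrays (-1.80 ± 0.13 SE, adjusted p = 7.5e-09). CBL9 was at background in Bala and at least 1.9-fold lower (-1.40, adjusted p = 2.2e-05). CIPK18, a kinase bound by calcineurin B-like sensors, gave 300.2, 307 and 279.6 in the Bala arrays, against 90.5, 90.8 and 86 in the Azucena arrays, higher in Bala with little spread (1.57 ± 0.17 SE, adjusted p = 1.9e-06). The median of the list was -0.03, and 0.04 under median centring.

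Auxin genes were called both ways, 7 higher and 8 lower in Bala of 46 (32.6%, against 25.7% of all genes), and 9 and 7 under median centring. GH3.2 (LOC4326893), which conjugates auxin to amino acids, gave 943, 843 and 634 in the Bala arrays, against 75.5, 152 and 151 in the Azucena arrays (2.57 ± 0.29 SE, adjusted p = 3.9e-06). IAA3 (LOC4325890), an Aux/IAA repressor, gave 984, 1134 and 1398 in the Bala arrays, against 231, 284 and 234 in the Azucena arrays (2.15 ± 0.18 SE, adjusted p = 9.3e-08). IAA9, of the same family, was higher in Bala (1.52, adjusted p = 2.8e-05), whereas GH3-8, of the conjugating family, was lower (-1.43, adjusted p = 0.0023). Cytokinin genes were called in 5 of 25 cases (20.0%, against 25.7% of all genes), 3 higher and 2 lower, and 2 and 4 under spike-in centring. LOGL3, a cytokinin-activating enzyme, gave 251, 254 and 437 in the Bala arrays, against 66.6, 62.1 and 74.6 in the Azucena arrays (1.93 ± 0.25 SE, adjusted p = 1.9e-05), while its relatives LOGL9 (-1.12, adjusted p = 0.00013) and LOGL7 (-0.89, adjusted p = 0.002) were lower in Bala. RR9, a response regulator induced by cytokinin, gave 294, 604 and 454 in the Bala arrays, against 234, 216 and 144 in the Azucena arrays (1.10 ± 0.27 SE, adjusted p = 0.0066). ACO1 (LOC4347225), the enzyme of the last step of ethylene synthesis, gave 51.3, 75.1 and 123 in the Bala arrays, against 1.2, 0.8 and 1.3 in the Azucena arrays, at background in Azucena and at least 3.61-fold higher in Bala (2.47 ± 0.34 SE, adjusted p = 3e-05).

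Of 20 aquaporin genes 1 was higher and 3 were lower in Bala (20.0% called, against 25.7% of all genes). TIP1-2, a water channel of the vacuole membrane, gave 1156, 1387 and 1329.7 in the Bala arrays, against 5460.0, 3724 and 2945 in the Azucena arrays, lower in every Bala array (-1.59 ± 0.33 SE, adjusted p = 0.0015). PIP2-4, of the plasma membrane, was at background in Bala and at least 1.73-fold lower (-1.56 ± 0.21 SE, adjusted p = 2.2e-05). Lsi1, which carries silicic acid, was lower (-0.91, adjusted p = 0.0079). TIP2-2 was higher (0.73, adjusted p = 0.013), a call lost without any 1 of drought Bala arrays 1 and 2 or drought Azucena array 3 (adjusted p = 0.057 to 0.081). The median of -0.05 changed sign under median centring, at 0.02.

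Phosphate genes were lower in Bala in 8 of 15 cases and higher in none (53.3% called, against 25.7% of all genes). The median was -0.56, and 5 to 9 were called over the settings tried. PHO1-2, which loads phosphate into the xylem, read 10.6, 23.5 and 15 in the Bala arrays, against 152, 138 and 166 in the Azucena arrays, at background in Bala and at least 6.98-fold lower (-2.39 ± 0.19 SE, adjusted p = 2.8e-08). The uptake transporters PHT1-4 and PHT1-8 were lower in every Bala array. PHT1-4 gave 96.8, 95.6 and 89.7 in the Bala arrays, against 271, 447 and 384 in the Azucena arrays (-1.77 ± 0.19 SE, adjusted p = 1.5e-06) and PHT1-8 gave 125, 113 and 126 in the Bala arrays, against 224, 330.4 and 353 in the Azucena arrays (-1.19 ± 0.18 SE, adjusted p = 7.1e-05). PHR3, a regulator of the response to phosphate shortage, differed by -0.72 (adjusted p = 0.0023). The other called members were the SPX sensors SPX2, SPX4 and SPX5 and the transporter PHT1-1, between -0.70 and -0.52.

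Nitrogen genes were called in 5 of 15 cases (33.3%, against 25.7% of all genes), 1 higher and 4 lower in Bala. AMT3-3, an ammonium transporter, gave 7.7, 9.7 and 16.8 in the Bala arrays, against 72.3, 73.8 and 118 in the Azucena arrays, at background in Bala and at least 3.94-fold lower (-1.91 ± 0.26 SE, adjusted p = 3.3e-05). AMT2-1 was lower in Bala with groups apart (-1.70 ± 0.17 SE, adjusted p = 5.9e-07). GLN1-2, a cytosolic glutamine synthetase, gave 66.8, 60.3 and 57.2 in the Bala arrays, against 97.5, 488 and 232 in the Azucena arrays, with Azucena array 2 the brightest (-1.65 ± 0.35 SE, adjusted p = 0.0022). The nitrate transporter NRT2.3 was at background in Azucena and at least 1.48-fold higher in Bala (0.83, adjusted p = 0.015), lost without any 1 of drought Bala array 3 or drought Azucena array 2 (adjusted p = 0.085).

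Metal genes were called in 16 of 43 cases (37.2%, against 25.7% of all genes), 5 higher and 11 lower in Bala, with a median of -0.17. MT1B, a metallothionein, gave 733, 376 and 249.9 in the Bala arrays, against 1865, 4062 and 2302 in the Azucena arrays (-2.61 ± 0.45 SE, adjusted p = 0.00031), and MT4A gave 453, 347 and 343 in the Bala arrays, against 1437, 2279 and 1839 in the Azucena arrays (-2.22 ± 0.27 SE, adjusted p = 7.1e-06). The 2 genes were the lowest of the list, and neither overlaps between cultivars. MT4C was at background in Bala and at least 1.48-fold lower (-1.44, adjusted p = 3.8e-05). NRAMP4, an aluminium transporter, was the highest of the list, with 302, 389 and 364 in the Bala arrays, against 65.9, 74.6 and 75.4 in the Azucena arrays (2.06 ± 0.19 SE, adjusted p = 2.5e-07).

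MADS14 (LOC4334140), a MADS-box factor that promotes the change to flowering, was the second highest named gene in Bala, with 823, 757 and 942 in the Bala arrays, against 44.1, 84 and 1.4 in the Azucena arrays. The Bala arrays agree closely, while the Azucena arrays spread down to a signal near 0. The difference was 4.18 ± 0.49 (SE, adjusted p = 5.2e-06), and 3.46 without Azucena array 3. All 3 of its other tested probe sets were called higher as well. Its close relative MADS15 gave 37.5, 36.2 and 51 in the Bala arrays, against 1.4, 3.4 and 1 in the Azucena arrays, at background in Azucena and at least 1.9-fold higher in Bala (1.68 ± 0.37 SE, adjusted p = 0.0027). MADS2, a PISTILLATA-like factor of floral organ identity, was also at background in Azucena and at least 2.72-fold higher (1.89 ± 0.23 SE, adjusted p = 8.5e-06). MADS26, which acts in stress responses, was the reverse, with 87, 89.9 and 73.6 in the Bala arrays, against 319.7, 329 and 359 in the Azucena arrays (-1.82 ± 0.21 SE, adjusted p = 4.6e-06). Over the 27 flowering and photoperiod genes tested 6 were higher and 2 lower in Bala (29.6% called, against 25.7% of all genes). Their median was 0.06, and -0.03 under spike-in centring. PCL1, a part of the evening complex of the clock, gave 592, 457 and 437 in the Bala arrays, against 76.9, 148 and 176 in the Azucena arrays (1.83 ± 0.23 SE, adjusted p = 1.1e-05).

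Of 15 genes for small RNA pathways 1 was higher and 3 were lower in Bala (26.7% called, against 25.7% of all genes). AGO18, an Argonaute known for antiviral defence, gave 21.3, 27.2 and 31 in the Bala arrays, against 205, 149.9 and 186 in the Azucena arrays (-2.20 ± 0.17 SE, adjusted p = 2.4e-08), and AGO17 gave 116, 128 and 109 in the Bala arrays, against 34.5, 33.5 and 62.7 in the Azucena arrays (1.20 ± 0.20 SE, adjusted p = 0.00025). RDR4 was at background in Bala and at least 1.92-fold lower (-0.93, adjusted p = 0.00049). AGO1D differed by -0.44 (adjusted p = 0.039), lost without any 1 of drought Bala arrays 1, 2 and 3 or drought Azucena arrays 2 and 3 (adjusted p = 0.076 to 0.13).

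Among the other leading genes, Y14b (LOC4334528), a subunit of the exon junction complex, gave 369, 370.3 and 230.2 in the Bala arrays, against 26.1, 25.7 and 38.5 in the Azucena arrays (2.86 ± 0.25 SE, adjusted p = 1.3e-07). EME1 (LOC4337213), part of an endonuclease that cuts DNA junctions, gave 273, 270.1 and 240.4 in the Bala arrays, against 21.6, 35.8 and 30.6 in the Azucena arrays (2.62 ± 0.18 SE, adjusted p = 7.5e-09), and RAC4 (LOC4340590), a small GTPase of the ROP family, gave 325, 353 and 474 in the Bala arrays, against 52.4, 71.8 and 58.8 in the Azucena arrays (2.37 ± 0.18 SE, adjusted p = 3e-08). All 3 were higher in each Bala array. GRXS1 (LOC4327130), a glutaredoxin, was lower in Bala, with 133, 102 and 75.1 in the Bala arrays, against 1259, 1369 and 1336 in the Azucena arrays (-3.51 ± 0.18 SE, adjusted p = 9.9e-11). ATG8D (LOC4349525), a protein of the autophagosome membrane, gave 16, 15.7 and 16.8 in the Bala arrays, against 296, 335 and 408 in the Azucena arrays, at background in Bala and at least 15.8-fold lower (-3.48 ± 0.21 SE, adjusted p = 1.4e-09).

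A majority of the genes called under drought differed in the same direction in flooded plots. The flooded plots gave 9572 called probe sets (28.6%, 9.94% higher and 18.7% lower in Bala) and 5216 called genes (33.4%, 10.7% higher and 22.7% lower), and 8735 (26.1%) and 4748 (30.4%) without flooded Azucena array 1. The drought and flooded differences use no array in common. Of the 4017 genes called under drought, 76.4% had the same sign in flooded plots and 47.6% were also called there with the same sign, while 6.17% were called with the opposite sign. Without flooded Azucena array 1 these shares were 76.9%, 45.8% and 5.79% of 4040 genes. Of the leading genes above, the flooded differences were 3.53 for ACO1, -4.45 for HCT3, -3.99 for ATG8D, -3.71 for CSLE1 and -3.03 for GRXS1. Without that array they were 3.02, -4.55, -3.87, -3.61 and -3.05. None of these genes was called in the test of the drought difference against the flooded one. Leading genes without a flooded call are given below. Over the 33476 probe sets the drought and flooded differences correlated with r = 0.667, a description across probe sets that share arrays and are not independent.

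The test of the difference itself, drought difference minus flooded difference, called 3794 probe sets (11.3%, 7.27% above 0 and 4.06% below) and 2333 genes (14.9%, 9.82% above and 5.13% below), and 3542 (10.6%) and 2159 (13.8%) without flooded Azucena array 1. Of the genes called under drought, 27.7% were also called in this test, and 25.3% without that array. The balance of its signs depends on the scaling, with 64.2% of called probe sets above 0 for the signals as deposited, 47.2% under median centring and 50.6% under quantile normalization. In the flooded plots 34.8% of called probe sets were higher in Bala as deposited, 60.8% under median centring and 52.2% under quantile normalization. Median centring moved the median flooded difference of all probe sets by 0.21 and the median of this test by -0.14.

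**Figure D3:**
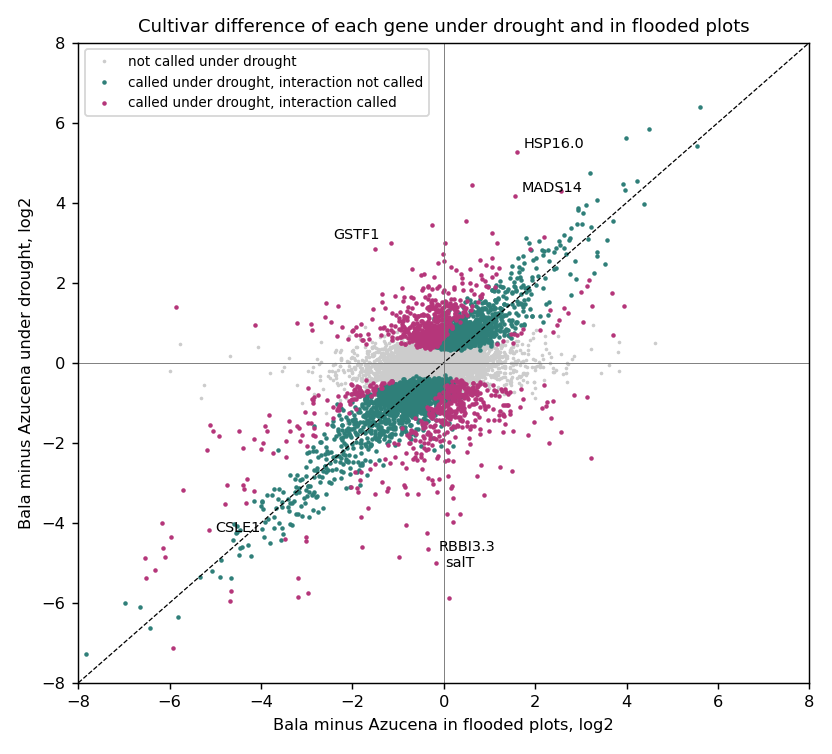
Bala minus Azucena difference of each of 15608 genes in flooded plots (horizontal axis) and under drought (vertical axis), both in log2(signal + 16). Grey points were not called under drought, green points were called under drought, purple points were also called in the test of drought against flooded differences (interaction), and the dashed line marks equal differences. The cloud follows the line, and salT, RBBI3.3 and HSP16.0 lie far from it.

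The genes whose cultivar difference was called under drought and in the test against flooded plots, but not in flooded plots, include several of the protective and defence genes above. RAB16D read 10.4, 1.4 and 1.3 in flooded Bala and 2.5, 1.6 and 15.7 in flooded Azucena, at background in both, and the test gave 2.63 ± 0.47 (SE, adjusted p = 0.0016). PM19L1 was at background in both flooded groups as well, with 2.22 ± 0.33 (SE, adjusted p = 0.00031) in the test. EXPA6 gave 12.8, 20.7 and 5.7 in flooded Bala and 16.6, 12.4 and 7.9 in flooded Azucena, again at background on the mean, and 2.98 ± 0.33 (SE, adjusted p = 2.6e-05). All 3 were at background in flooded leaves of both cultivars and higher in Bala than in Azucena under drought. Without flooded Azucena array 1 the test gave 2.75 (adjusted p = 0.0017) for RAB16D, 2.24 (adjusted p = 0.00054) for PM19L1 and 2.87 (adjusted p = 5.8e-05) for EXPA6. With a pseudocount of 1 the test of RAB16D (adjusted p = 0.055) and PM19L1 (adjusted p = 0.14) missed the threshold.

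HSP16.0 depended on single arrays. It read 91.5, 168 and 69.9 in flooded Bala and 188, 1.8 and 1.1 in flooded Azucena, so that flooded Azucena array 1 alone was bright in its group. Its flooded difference was 1.59 (adjusted p = 0.11) over all arrays and 2.77 (adjusted p = 0.00022) without that array. The test gave 3.68 ± 1.01 (SE, adjusted p = 0.025) over all arrays and 2.50 (adjusted p = 0.016) without it. The call was lost without any 1 of drought Bala arrays 1 and 2, drought Azucena array 3 or flooded Bala arrays 1 and 3 (adjusted p = 0.057 to 0.072), and with a pseudocount of 1 or no filter, where the highest adjusted p was 0.41. TUB4 depended on flooded Azucena array 1, with no call in flooded plots over all arrays (-0.48, adjusted p = 0.37) and a lower level in flooded Bala without the array (-1.02, adjusted p = 0.0085). Its test value was 2.31 over all arrays and 2.85 (adjusted p = 8.1e-05) without it.

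In the other direction stood genes that were dim in flooded leaves of both cultivars and bright under drought in Azucena. salT read 15.7, 10.8 and 10.1 in flooded Bala and 14.8, 13.8 and 18.9 in flooded Azucena and RBBI3.3 read 16.2, 12.3 and 10.1 in flooded Bala and 16.4, 16.8 and 30.6 in flooded Azucena, with group means at background, and the tests gave -4.84 ± 0.73 (SE, adjusted p = 0.00041) and -4.30 ± 0.37 (SE, adjusted p = 2e-06). ASMT, ICL, MS and JAMYB were also at background in both flooded groups, with test values of -3.88 (adjusted p = 5.2e-06), -4.13 (adjusted p = 0.0023), -3.60 (adjusted p = 0.0026) and -2.91 (adjusted p = 8.7e-05). Cht1 was measurable in flooded leaves and alike in the cultivars, with 107, 92.4 and 84.3 in flooded Bala and 61.4, 80.7 and 104 in flooded Azucena, and its test gave -4.17 ± 0.36 (SE, adjusted p = 2e-06). pinA gave 57.2, 102 and 86.7 in flooded Bala and 78.1, 81.2 and 68 in flooded Azucena and -3.86 ± 0.27 (SE, adjusted p = 3.4e-07). Without flooded Azucena array 1 the tests gave -4.81 (adjusted p = 0.00074) for salT, -4.21 (adjusted p = 4.6e-06) for RBBI3.3, -3.95 (adjusted p = 8.2e-06) for ASMT, -4.28 (adjusted p = 0.0027) for ICL, -3.46 (adjusted p = 0.0053) for MS, -2.89 (adjusted p = 0.00018) for JAMYB, -4.01 (adjusted p = 4.2e-06) for Cht1 and -3.88 (adjusted p = 9.1e-07) for pinA. Of the named genes called under drought and in the test but not in flooded plots, 62 were higher and 42 lower in Bala under drought. Also among them were PCL1 (1.83, adjusted p = 0.0015), CIPK18 (1.22, adjusted p = 0.0032) and KIN14F (1.54, adjusted p = 0.0037), all higher. With a pseudocount of 1 the call of KIN14F in the test was lost (adjusted p = 0.11).

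**Figure D4:**
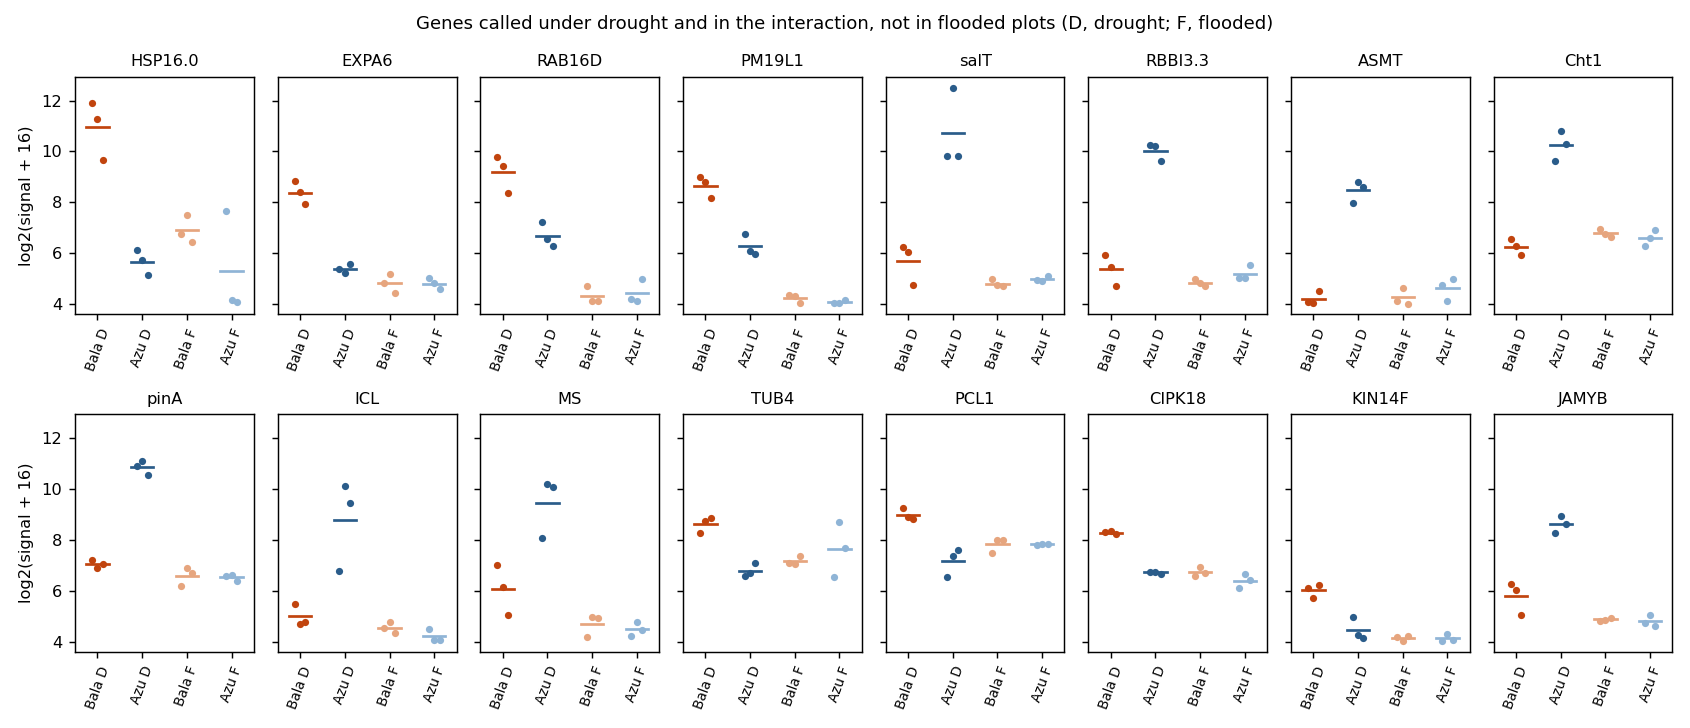
Level of 16 named genes on each of the 12 arrays as log2(signal + 16), in panels with 1 column per group (Bala D and Azu D, droughted Bala and Azucena; Bala F and Azu F, flooded). Points are arrays and lines are group means. Only genes called under drought and in the interaction, but not in flooded plots, could be chosen. That the flooded groups lie close together in most panels and the droughted groups apart follows from this choice. In the HSP16.0 panel flooded Azucena array 1 is apart from the other two.

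Fewer named genes were called in both conditions with opposite signs, 27 higher and 11 lower in Bala under drought. They were 7.05% of the named genes called under drought, near the 6.17% among all genes called under drought. GSTF1 read 46.8, 80.4 and 45.9 in flooded Bala and 189, 126 and 129 in flooded Azucena, lower in Bala (-1.16, adjusted p = 0.002), against a large excess in Bala under drought, and the test gave 4.15 ± 0.36 (SE, adjusted p = 2e-06). CAX1a, a vacuolar calcium exchanger, gave 424, 437 and 462 in the Bala arrays, against 163, 176 and 175 in the Azucena arrays under drought (1.29 ± 0.21 SE, adjusted p = 0.0002) and 224, 414 and 184 in flooded Bala and 473, 502 and 412 in flooded Azucena (-0.80, adjusted p = 0.0085). MAP70.2, a microtubule-associated protein, gave 275, 283 and 258 in the Bala arrays, against 122, 112 and 104 in the Azucena arrays under drought (1.16 ± 0.15 SE, adjusted p = 1.9e-05), with a flooded difference of -0.56 (adjusted p = 0.011). CIPK2 gave 2986, 2806 and 2399 in the Bala arrays, against 1459, 1383 and 1407 in the Azucena arrays under drought (0.93 ± 0.14 SE, adjusted p = 5.6e-05), with a flooded difference of -0.38 (adjusted p = 0.048). The test values of these genes were 2.09 (adjusted p = 0.00026), 1.72 (adjusted p = 8.3e-05) and 1.31 (adjusted p = 0.00031). Without flooded Azucena array 1 the flooded differences were -0.99 (adjusted p = 0.012) for GSTF1, -0.78 (adjusted p = 0.024) for CAX1a, -0.61 (adjusted p = 0.017) for MAP70.2 and -0.44 (adjusted p = 0.042) for CIPK2. No other tested probe set of CIPK2 was called under drought. MADS15 was lower in flooded Bala over all arrays (-1.07, adjusted p = 0.037) but not without flooded Azucena array 1 (-1.03, adjusted p = 0.079).

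Other genes were lower in Bala under drought and higher in flooded plots. The glutaredoxin GRXC1 gave 247, 177 and 271 in the Bala arrays, against 345, 459.6 and 804 in the Azucena arrays under drought (-1.09 ± 0.33 SE, adjusted p = 0.023) and 1087, 864 and 969.6 in flooded Bala and 389, 129 and 139 in flooded Azucena (2.24, adjusted p = 5.3e-05). GRXC10, another glutaredoxin, gave -0.81 (adjusted p = 0.02) under drought and 2.84 (adjusted p = 7.4e-08) in flooded plots, and the auxin repressor IAA6 -1.05 (adjusted p = 0.029) and 1.29 (adjusted p = 0.0064). The kinases WNK8 and CPK21 differed by -0.75 (adjusted p = 0.01) and -0.71 (adjusted p = 0.03) under drought, with flooded calls that were lost without flooded Azucena array 1, at 0.51 (adjusted p = 0.11) and 0.49 (adjusted p = 0.16). Without that array the flooded differences of the others were 2.72 (adjusted p = 5.3e-07) for GRXC1, 2.85 (adjusted p = 3.8e-07) for GRXC10 and 1.55 (adjusted p = 0.0027) for IAA6. All 5 drought calls were lost on leaving out single arrays. That of GRXC1 was lost without any 1 of drought Bala array 2 or drought Azucena array 3 (adjusted p = 0.11 to 0.13), that of GRXC10 without any 1 of drought Bala array 2 or drought Azucena array 3 (adjusted p = 0.098 to 0.11) and that of IAA6 without any 1 of drought Bala arrays 2 and 3 or drought Azucena arrays 2 and 3 (adjusted p = 0.061 to 0.1). The call of WNK8 was lost without any 1 of drought Bala array 2 or drought Azucena arrays 2 and 3 (adjusted p = 0.05 to 0.068) and that of CPK21 without any 1 of drought Bala arrays 2 and 3 or drought Azucena arrays 1, 2 and 3 (adjusted p = 0.056 to 0.11).

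The brightest named genes that were called had small differences. SAM1, an S-adenosylmethionine synthase, gave 4662, 4667 and 4098 in the Bala arrays, against 3107, 3369 and 2852 in the Azucena arrays (0.52 ± 0.15 SE, adjusted p = 0.016), and PDI, a protein disulfide isomerase, gave 4237, 4113 and 3672 in the Bala arrays, against 2202, 2869.9 and 2795 in the Azucena arrays (0.62 ± 0.16 SE, adjusted p = 0.0078). RRF, the ribosome recycling factor, was higher in Bala by 0.34 (adjusted p = 0.039). The calls of SAM1 and RRF were lost on leaving out arrays, that of SAM1 without any 1 of drought Bala arrays 1 and 2 or drought Azucena array 3 (adjusted p = 0.056 to 0.068) and that of RRF without any 1 of drought Bala arrays 1, 2 and 3 or drought Azucena arrays 1, 2 and 3 (adjusted p = 0.059 to 0.15). HOS59, a KNOX homeobox factor, gave 2366, 2056 and 2505 in the Bala arrays, against 4495, 4201 and 3795 in the Azucena arrays, lower in every Bala array (-0.85 ± 0.12 SE, adjusted p = 3.6e-05). BBD2, a nuclease, gave 2073, 2188 and 2734 in the Bala arrays, against 3273, 3561 and 3479 in the Azucena arrays (-0.57 ± 0.12 SE, adjusted p = 0.0022).

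Genes often used as references were not all alike. Of 29 actin, tubulin, ubiquitin, GAPDH and translation factor genes 4 were higher and 1 lower in Bala, with a median of 0.13. The share called, 17.2%, was below the 25.7% of all genes. TUB4, a beta-tubulin, gave 293, 406 and 447 in the Bala arrays, against 79.2, 87 and 121 in the Azucena arrays (1.83 ± 0.36 SE, adjusted p = 0.00097) and ACT1 gave 1137, 1153 and 1063 in the Bala arrays, against 699, 799 and 651 in the Azucena arrays (0.64 ± 0.14 SE, adjusted p = 0.0024). ACT7 was lower, with 3802, 4104 and 3232 in the Bala arrays, against 6023, 6011 and 5457 in the Azucena arrays (-0.65 ± 0.11 SE, adjusted p = 0.00027). GAPC3 differed by 0.47 (adjusted p = 0.016), a call lost without any 1 of drought Bala arrays 1 and 2 or drought Azucena array 3 (adjusted p = 0.058 to 0.088) and with the mean of its probe sets (adjusted p = 0.21). None of 22 ribosomal protein genes was called by limma, and 1 of them had an unadjusted p under 0.05.

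Markers of leaf mesophyll were bright in both cultivars. RBCS, CAB2R and rca, genes of Rubisco, light harvesting and Rubisco activase, had summed signals of 17829.3 to 18371.1 in Bala and 17262.4 to 19168.0 in Azucena, and 0 of 3 were called (limma, 0 of 3 also at an unadjusted p under 0.05). Markers of secondary walls and vascular tissue summed to 168.1 to 377.4 in Bala and 84.4 to 122.7 in Azucena. CESA4 and CESA7 were called and BC1 and CESA9, with signals near background, were not. Markers of dividing cells summed to 370.8 to 406.5 in Bala and 247.6 to 268.0 in Azucena, and 1 of 4 was called, the cyclin CYCA2-1. Of 4 root markers PHT1-8 and Lsi1 were lower in Bala, while IRT1 and PHT1-11 were at background in both. The part of cell composition in the cell wall, kinesin and phosphate results was not tested, and in a bulk leaf sample fewer cells of a type and less RNA per cell cannot be told apart.

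The largest differences of all fell on genes known here by identifier alone. LOC4343987 gave 4.6, 0.8 and 2.7 in the Bala arrays, against 2630.2, 2969 and 3019 in the Azucena arrays, at background in Bala and at least 132-fold lower (-7.27 ± 0.15 SE, adjusted p = 6.4e-15). LOC4350213 was at least 140.0-fold lower (-7.14 ± 0.17 SE, adjusted p = 1.4e-14) and LOC4340120 at least 144-fold lower (-6.64 ± 0.18 SE, adjusted p = 5e-14), both also at background in Bala. In the other direction LOC4340728 gave 2183, 2353 and 1860.1 in the Bala arrays, against 11.2, 12.2 and 5.7 in the Azucena arrays, at background in Azucena and at least 98.1-fold higher in Bala (6.39 ± 0.20 SE, adjusted p = 3.3e-13). LOC4348287 was at least 46.2-fold higher (5.85 ± 0.62 SE, adjusted p = 1.6e-06) and LOC4346960, annotated as a long noncoding RNA, at least 40.1-fold higher (5.62 ± 0.49 SE, adjusted p = 1.3e-07). All 6 had the same direction in flooded plots. LOC4348287 read 809.5, 927 and 849 in flooded Bala and 201, 0.7 and 0.6 in flooded Azucena and LOC4346960 read 682, 836 and 788 in flooded Bala and 165, 11.8 and 7.9 in flooded Azucena, and in both array 1 alone was above background in flooded Azucena.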

How the data were processed

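Total RNA of the leaf bags was extracted with Trizol, labelled and hybridised to Affymetrix rice arrays, 1 array per bag. The deposited values are linear signal intensities, 1 per probe set and array, produced by the authors with MAS5, per the submitters' processing notes. Its scaling target and version were not stated in the sources used. No probe-level files were used.

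Of 57381 probe sets, 123 controls were left out. A probe set was tested where 3 or more of the 12 arrays had it above the median signal of that array. Signals were kept as deposited and transformed as log2(signal + 16). With limma 3.58.1 in R 4.3.3, the 4 group means were fitted over all 12 arrays, which share 1 estimate of the spread (8 residual degrees of freedom), by lmFit and eBayes with a trend. Contrasts were Bala minus Azucena under drought, the same in flooded plots, and the drought minus the flooded difference. P-values were adjusted by the Benjamini-Hochberg method over the 33476 probe sets, and a call needs an adjusted p under 0.05. Probe sets were named through the platform annotation and a RefSeq gene table, and a gene is represented by its tested probe set of highest mean. Group means were taken as at background where all arrays, or the mean, did not exceed the brightest of 33 negative control probe sets. "At least" folds set the brighter mean against the higher of the dim array's signal and that array's background.

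The named genes are the 15 highest and 15 lowest called genes without overlap between the cultivars under drought, those called in drought and in the interaction but not in flooded plots (8 each way), those of opposite sign (5 each way), up to 4 called members per list by size, the brightest called genes (5 each way) and the 3 largest each way among genes known by identifier. Members, lists and rules were chosen with earlier results of these data known. Alternatives were another pseudocount (1 and 64), filter, scaling, eBayes setting, probe set summary and a replicate block, the 6 drought arrays alone, and each array left out. Replicate numbers did not pair the arrays: deviations of arrays with the same number correlated between -0.11 and 0.218 across conditions and cultivars.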

Additional observations from a re-analysis of the deposited data

Results flagged for a closer look

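The cultivar difference under drought differed from that in flooded plots, by a test of the difference itself, at 3794 of 33476 probe sets. The values below are drought difference minus flooded difference in log2, each with an adjusted p under 0.05 (limma). A value above 0 does not by itself mean an excess in Bala. CML16, AMT3-3, PHT1-8, MADS26 and AGO1D have values above 0 but were lower in Bala in both conditions, by less under drought. The share of called values above 0 depends on the scaling, at 64.2% as deposited and 47.2% under median centring.

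Among stress and solute genes the values were 3.68 for HSP16.0, 2.63 for RAB16D, 2.22 for PM19L1, 4.15 for GSTF1, 1.94 for RINO1, 0.99 for TPP7, 1.24 for TPP2 and 1.18 for PP2C08. Below 0 were HSP18.8 at -1.41, CAT-A at -0.76 and GRXC1 and GRXC10 at -3.33 and -3.66. In photosynthesis and carbon metabolism they were 1.20 for FBP1, 0.83 for CHLG, 1.53 for SS1 and 2.18 for GAPC3, against -0.83 for OEE3, -4.13 for ICL, -3.60 for MS and -1.74 for MST3.

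For the wall and cytoskeleton genes named the values were 2.98 for EXPA6, 0.97 for LAC15, 2.1 for CESA4, 1.74 for CESA7, 2.25 for CSLA1, 3.72 for 4CL2, 2.31 for TUB4, 1.34 for ACT1, 1.72 for MAP70.2, 1.54 for KIN14F, 1.58 for KIN14C, 1.15 for KIN5C and -2.04 for CAD8C. In the expansin and xyloglucan list 3 values were called above 0 and 3 below. For the defence and jasmonate genes named the values were -4.84 for salT, -4.30 for RBBI3.3, -4.17 for Cht1, -3.88 for ASMT, -3.86 for pinA, -2.49 for BGLU16, -0.96 for GER4, -2.91 for JAMYB, -1.83 for JAZ11 and -1.81 for JAZ10.

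Signalling and regulatory genes had 1.28 for CML16, 1.15 for RAC4, 1.22 for CIPK18, 1.31 for CIPK2, 1.83 for PCL1, 2.62 for MADS14, 2.75 for MADS15, 1.00 for MADS26 and 1.26 for AGO1D. Below 0 were IAA6 at -2.34, WNK8 at -1.32, CPK21 at -1.36, CBL9 at -1.53, LOGL7 at -0.98, HOS59 at -0.73, BBD2 at -0.93 and PHR3 at -0.78. Transporters and metal-binding proteins had 2.09 for CAX1a, 2.24 for AMT3-3 and 1.14 for PHT1-8, against -3.83 for MT1B, -2.73 for MT4A and -1.33 for MT4C. LOC4350213 was at -1.20.

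The flooded side of each value rests on 3 Azucena arrays, of which array 1 stood apart. Without it the values were 2.50 (adjusted p = 0.016) for HSP16.0, -4.44 (adjusted p = 3.2e-05) for MT1B and -3.17 (adjusted p = 1.3e-06) for MT4A, and those of JAZ11 (-1.66, adjusted p = 0.053), LAC15 (1.00, adjusted p = 0.061), FBP1 (1.14, adjusted p = 0.076), MST3 (-1.63, adjusted p = 0.082) and MADS26 (0.77, adjusted p = 0.093) were no longer past the threshold.

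Other arrays and settings also ended calls. The value of LAC15 missed the threshold without any array other than flooded Bala array 2, with adjusted p of up to 0.12. That of MST3 was lost without any 1 of drought Bala arrays 1 and 2, drought Azucena arrays 2 and 3, flooded Bala arrays 1, 2 and 3 or flooded Azucena arrays 1, 2 and 3 (adjusted p = 0.07 to 0.11), that of FBP1 without any 1 of drought Bala arrays 2 and 3, drought Azucena arrays 1 and 3, flooded Bala arrays 1 and 3 or flooded Azucena arrays 1 and 2 (adjusted p = 0.076 to 0.11), that of MADS26 without any 1 of drought Bala arrays 1 and 2, drought Azucena arrays 1, 2 and 3, flooded Bala array 1 or flooded Azucena arrays 1 and 2 (adjusted p = 0.06 to 0.097), that of PHR3 without any 1 of drought Bala array 1, drought Azucena arrays 2 and 3, flooded Bala arrays 2 and 3 or flooded Azucena array 3 (adjusted p = 0.05 to 0.077) and that of CESA7 without any 1 of drought Bala array 3, drought Azucena arrays 2 and 3, flooded Bala arrays 1 and 3 or flooded Azucena array 2 (adjusted p = 0.053 to 0.072). The calls of KIN5C were lost without any 1 of drought Bala array 2, drought Azucena array 2, flooded Bala array 3 or flooded Azucena array 2 (adjusted p = 0.057 to 0.064), of LOGL7 without any 1 of drought Bala array 1, drought Azucena array 2 or flooded Bala array 2 (adjusted p = 0.052 to 0.068), of MADS14 without any 1 of flooded Bala array 1 or flooded Azucena array 2 (adjusted p = 0.06 to 0.063), of CAT-A without drought Bala array 2 (adjusted p = 0.052) and of GER4 without drought Bala array 2 (adjusted p = 0.051). HSP16.0 was lost without any 1 of drought Bala arrays 1 and 2, drought Azucena array 3 or flooded Bala arrays 1 and 3 (adjusted p = 0.057 to 0.072). Median centring ended the calls of LAC15, FBP1 and CESA7. With a pseudocount of 1 the calls of HSP16.0, MADS14, RAB16D, PM19L1, KIN14F, GER4, CESA7, FBP1, MST3 and LOC4350213 were lost.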

How the results depend on the processing

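The number of probe sets called stayed within 1.5 times its value under every alternative tried. Under drought it was 7121 and 7720 with pseudocounts of 1 and 64, 9045 with quantile normalization, 9327 with median centring, 7866 with spike-in centring, 6786 without a filter, 6377 with a filter of 50, 7429 without the trend and 8168 with the 6 drought arrays alone. Leaving out 1 array gave 5853 to 8026 under drought, 7738 to 9587 in flooded plots and 2600 to 3900 for the interaction. With a replicate block the counts were 7851, 9800 and 4039, against 7684, 9572 and 3794 without it, and the block rests on numbers that do not pair the arrays. The mean of a gene's probe sets gave 4180 called genes, against 4017 with the brightest probe set. The share of drought calls with the same sign in flooded plots was 75.9% to 77.5%, and 76.9% without flooded Azucena array 1, an alternative chosen after seeing the data. Median centring moved the drought split to 58.6% higher in Bala and its median by 0.07. Of 146 named genes, 113 were called under drought in each of the 23 alternatives that tested them, and 0 changed sign. The filter of 50 left dim genes such as KIN14F untested. Of 67 with a called interaction, 49 were called in each alternative scored for it. The 6 drought arrays alone and the mean of probe sets were not scored for the interaction. Dim genes are limited by background: 1707 genes were at background in both cultivars under drought, where no fold can be given.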

Other observations

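Called members of other gene lists are named here after their values were seen. Against 25.7% of all genes, the shares called were 33.3% of WRKY, 28.6% of NAC and 9.52% of potassium and sodium genes. They were 12.5% of diterpenoid, 24.4% of histone, cyclin and division and 60.0% of receptor kinase genes. Both called WRKY factors of 6 tested were lower in Bala, WRKY51 (-1.21, adjusted p = 2.5e-05) and WRKY71 (-0.98, adjusted p = 0.0011), and so were both called NAC factors of 7, NAC45, at background in Bala (-1.51, adjusted p = 2.9e-05), and NAC6 (-0.49, adjusted p = 0.028), a factor of stress responses. Of 21 potassium and sodium transporters HAK17 (-1.67, adjusted p = 0.00018) and HAK16 (-0.97, adjusted p = 0.0043), of the HAK potassium transporter family, were lower. GA20OX3, an oxidase of gibberellin synthesis, was lower (-0.81, adjusted p = 0.017), as was EIL1, a factor of ethylene signalling (-0.59, adjusted p = 0.0041).

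Others were higher in Bala, namely SHAT1 of the AP2/ERF factors (0.78, adjusted p = 0.0033), the flavonoid enzyme CHI, a chalcone isomerase (0.73, adjusted p = 0.00075), the blast resistance gene PID2 (0.82, adjusted p = 0.003) and the receptor kinase BAK1 (1.08, adjusted p = 0.00076). Of 5 receptor kinases tested, RLK10 was also higher (0.53, adjusted p = 0.038) and CERK1 lower (-0.46, adjusted p = 0.031). Of 16 diterpenoid phytoalexin genes none was higher and 2 were lower, CYP76M7 and MAS, both at background in both cultivars on the mean. Of 41 histone, cyclin and division genes 5 were higher and 5 lower. The cyclin CYCA2-1 gave 60.5, 63.7 and 63.8 in the Bala arrays, against 9.4, 6.1 and 8.1 in the Azucena arrays, at background in Azucena (1.72 ± 0.17 SE, adjusted p = 5.9e-07). H2B.10, a histone, was at background in Bala and lower (-1.70, adjusted p = 0.00042). The drought minus flooded difference was -0.62 (adjusted p = 0.048) for EIL1 and 0.90 (adjusted p = 0.022) for CYCA2-1, and without flooded Azucena array 1 it was -0.63 (adjusted p = 0.072) and 0.79 (adjusted p = 0.053).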
